A study of Homo sapiens with 12 samples.

Results

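The genes described here carry systematic LINC names, the label given to long intergenic noncoding RNA genes that have no name from function. They were chosen by an identifier made of LINC and digits alone and a mean count of at least 20 reads over 12 libraries. This gave 141 genes of 2111 with such identifiers, in a table of 52859 genes used. The cells were MDA-MB-231, an established line of human triple-negative breast cancer, and every sample had received a locked nucleic acid (LNA), a stabilised oligonucleotide that pairs with a complementary RNA. The 4 groups of 3 libraries received a control LNA, the mtAsn-1 or mtAsn-2 LNA, both named for the mitochondrial asparagine tRNA, or the mtLys LNA, named for the mitochondrial lysine tRNA. Every group received 20 nM of its LNA with a lipid reagent and was harvested on day 2, and there was no group without an LNA. Whether replicates came from separate cultures is not in the labels, and the p-values therefore reflect only how these libraries spread, which may be technical.

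Long intergenic noncoding RNAs are transcribed by RNA polymerase II, capped and often spliced and polyadenylated, but hold no long conserved reading frame. Most are less abundant than mRNAs, many stay in the nucleus, and their transcripts are trimmed or removed by the nuclear RNA exosome and ended early by the Integrator complex. A few act in cis on a neighbouring gene, and for most no function is known.

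The mean count chose these genes, so their overall level is a description. Of the 2111 LINC genes, 1147 had 0 reads in all libraries and 823 had a mean above 0 and below 20. Just outside the limit stood LINC01389, LINC00659 and LINC02228, with mean counts of 19.2, 19.4 and 19.9, and just inside it LINC00842, LINC00865 and LINC00526, with 20.2, 20.3 and 20.7. A gene with low counts can pass this limit only through the groups where it is high. The difference between groups is then partly fixed by the choice of genes, and its values are a description. All 141 genes passed the filter on low counts, had reads in every library and lay on 23 chromosomes. RefSeq lists 140 of them as lncRNA and LINC00672 as protein-coding. Their exons spanned 327 to 11193 bases (median 2161), and 17 had a single exon block.

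Library totals ran from 17978825 to 37708993 counts, and the LINC genes held 0.0717% to 0.0842% of them. All 8 markers fixed for the mesenchymal-like line were measured, led by VIM, the intermediate filament vimentin, at 3363 CPM (counts scaled by library size), and their summed level moved with the groups: 7572 to 7782 CPM with control, 8676 to 9466 under mtAsn-1, 7424 to 7552 under mtAsn-2 and 8781 to 9190 under mtLys. Of 8 luminal markers 6 were tested, and the sum over all 8 was 364 to 374 CPM with control, 365 to 433 under mtAsn-1, 269 to 306 under mtAsn-2 and 361 to 411 under mtLys. KRT19, a keratin gene, held most of that sum at 333 CPM, while ESR1, PGR and CDH1, the genes of both hormone receptors and of E-cadherin, had 0.104, 0.00514 and 0.265 CPM. Of 6 leukocyte markers 2 were tested, with a sum over all 6 of 2.83 to 4.0, 3.89 to 4.29, 3.41 to 3.9 and 4.63 to 5.40 CPM in the same order of groups. Of 4 endothelial markers 3 were tested, with a sum over all 4 of 17.5 to 20.1, 19 to 22.4, 13.5 to 15.9 and 19.7 to 22.6 CPM. CD3E and CDH5 had 0.00229 and 0.00271 CPM. Mesenchymal sums were thus higher under mtAsn-1 and mtLys than in the other groups, and luminal and endothelial sums lowest under mtAsn-2. Single luminal markers did not follow their sum: under mtAsn-2, 2 were higher and 1 lower than control, with a median log2 fold change of 0.039. Of all genes tested, 24.1% were higher and 27% lower there. Under mtAsn-1, 1 luminal marker was higher and 2 lower (median log2 fold change -0.18), and 1 endothelial marker was higher and 1 lower (-0.62). Mesenchymal markers went more with their sum, with 5 higher and 1 lower under mtAsn-1 and 5 and 0 under mtLys. Endothelial markers did so under mtAsn-2, with 0 higher and 2 lower. Among all genes, 24.3% were higher and 24.2% lower under mtAsn-1, and 24.6% and 23.9% under mtLys. Some LINC genes described below split the groups as these sums did, and the part of the markers in those results was not tested.

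Per kilobase of exon, the LINC genes were low. Their median was 1.17 CPM per kilobase (range 0.149 to 15), beside 3.92 for all 16051 genes tested. The median count was 64.2 reads per library, 58 genes had a mean under 50 reads, and 15 genes held 50% of the summed LINC CPM. LINC01578, also known as CHASERR and encoded just upstream of the chromatin remodeller gene CHD2, was the highest at 15 CPM per kilobase, followed by LINC01116 at 14.5, LINC00205 at 9.90 and LINC00673 at 9.81. LINC00205 had the most reads, 2029 per library on average, because counts are not divided by its length of 7165 exonic bases.

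**Figure D1:**
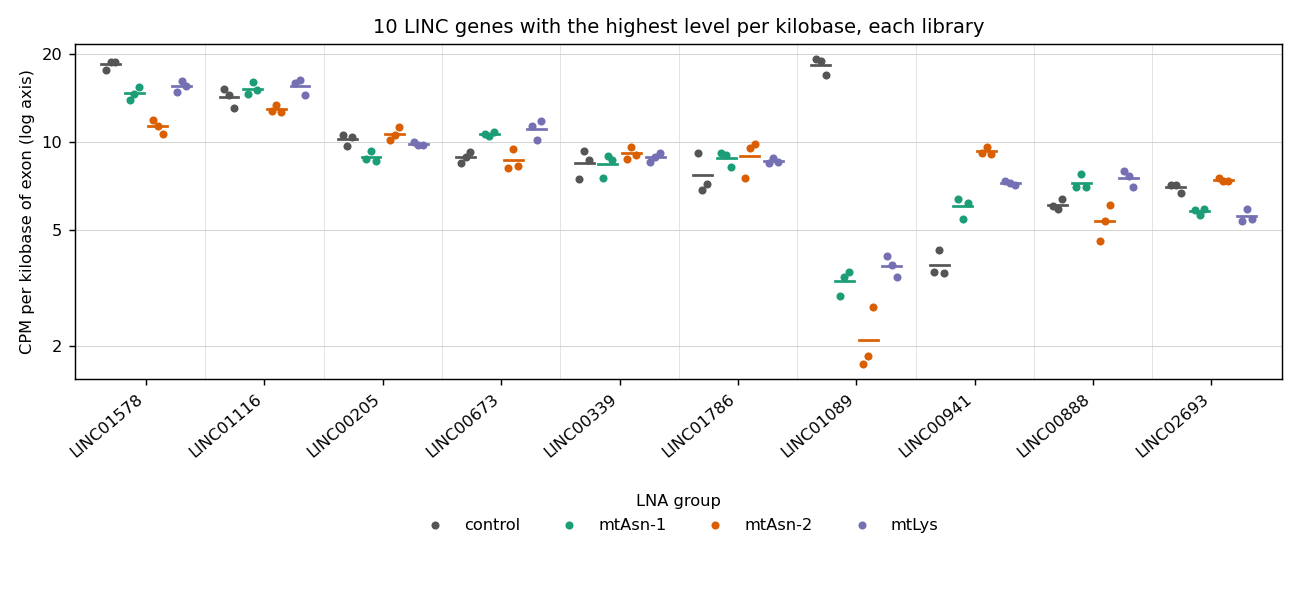
Level of the 10 LINC genes with the highest mean CPM per kilobase of exon (log axis), with 1 point per library and a bar at each group's mean. LINC01089 fell from 18.4 CPM per kilobase with the control LNA to 2.10 under mtAsn-2, and LINC00941 rose from 3.80 to 9.30, while LINC00339 and LINC01786 had groups that overlapped.

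The order within this top group depended on the LNA. With the control LNA, LINC01578 stood at 18.5 ± 0.680 CPM per kilobase (SD, n = 3) and LINC01089 at 18.4 ± 1.20, which did not differ beyond their spread. LINC01116 followed at 14.3 ± 1.08. With mtAsn-2, LINC01116 stood at 12.9 ± 0.412, LINC01578 at 11.3 ± 0.650, LINC00205 at 10.6 ± 0.573 and LINC00941 at 9.30 ± 0.272, and LINC01089 was lower than all of these at 2.10 ± 0.544. LINC00339 showed no call in any of the 6 comparisons, with 11.8 ± 1.30 CPM with the control LNA and 11.6 ± 1.04, 12.7 ± 0.611 and 12.3 ± 0.482 CPM under mtAsn-1, mtAsn-2 and mtLys.

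In each comparison with control, between 51.8% and 60.3% of the LINC genes passed the test. With mtAsn-1, 73 of 141 passed it at an adjusted p under 0.05, 36 higher and 37 lower, beside 48.5% of all genes tested (24.3% higher and 24.2% lower). With mtAsn-2, 73 passed, 41 higher and 32 lower, beside 51.1% of all genes (24.1% and 27%). With mtLys, 85 passed, 50 higher and 35 lower, beside 48.5% of all genes (24.6% and 23.9%). Their changes were larger than those of most genes: the median absolute log2 fold change was 0.42, 0.43 and 0.44 for mtAsn-1, mtAsn-2 and mtLys, beside 0.23, 0.24 and 0.22 for all genes. LINC counts are lower than those of most genes (median 2.31 against 17.5 CPM), and the part of counting noise in this was not tested.

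Calls of at least 2-fold were 8 higher and 14 lower under mtAsn-1, beside 2.23% and 3.5% of all genes. With mtAsn-2 they were 15 higher and 10 lower, beside 2.54% and 3.46%, and under mtLys 13 higher and 11 lower, beside 2.52% and 3.14%. The median signed log2 fold change stayed near 0, at 0.035, 0.048 and 0.12.

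**Figure D2:**
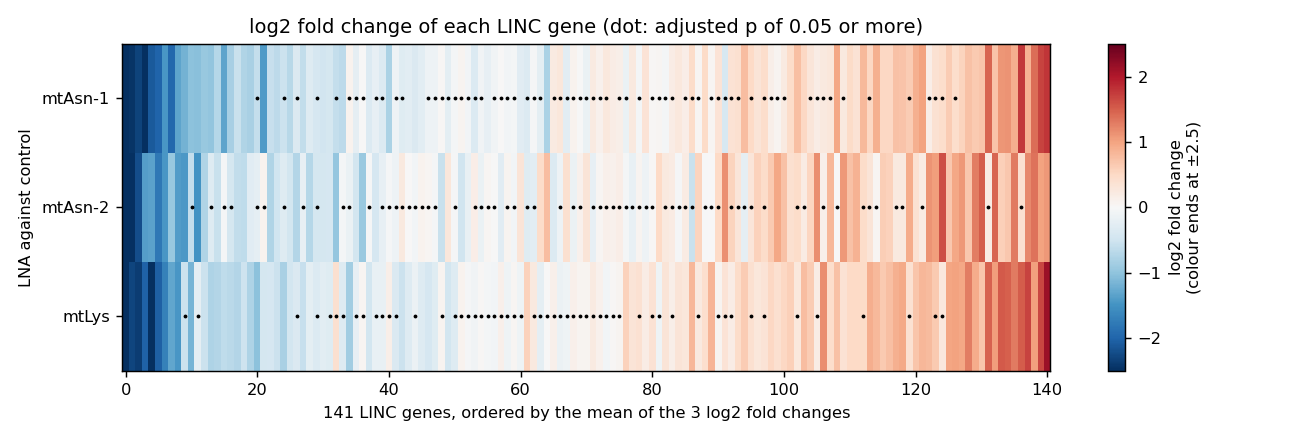
Log2 fold change against the control LNA for all 141 LINC genes (columns, ordered by the mean of the 3 values) under mtAsn-1, mtAsn-2 and mtLys (rows), with a dot where the adjusted p was 0.05 or more. Both ends carry the same colour in all 3 rows, with 19 genes lower and 20 higher in all of them, and 24 genes have a dot in every row.

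The 3 LNA groups share the control libraries, so their calls are not independent. Of the 141 genes, 20 were higher with all 3 LNAs (10.8% of all genes tested were) and 19 were lower with all 3 (12.7% of all genes). Another 13 were higher under mtAsn-1 and mtLys alone (6.46% of all genes) and 9 lower with that pair (5.53%). Under mtAsn-2 and mtLys alone 8 were higher (1.61% of all genes) and 0 lower (1.69%), and for mtAsn-1 with mtAsn-2 alone 0 were higher (1.61%) and 3 lower (2%). With 1 LNA alone, 10 were higher (8.02% of all genes) and 10 lower (6.58%) under mtAsn-2. For mtLys alone these were 9 higher (2.32%) and 6 lower (2.59%), and for mtAsn-1 alone 3 higher (2.25%) and 4 lower (2.34%). At least 1 LNA called 117 genes (72.6% of all genes), and 24 genes were called by none (27.4%). LINC01128, LINC02863 and LINC01003 were called in opposite directions by different LNAs (6.11% of all genes were), each with 1 call that rested on single libraries. The fall of LINC01128 under mtAsn-1 missed the threshold without control replicate 2 (adjusted p = 0.0767) or mtAsn-1 replicate 2 (0.117), and that of LINC02863 without control replicate 3 (0.0882) or mtAsn-1 replicate 1 (0.100). The rise of LINC01003 under mtAsn-2 was lost without control replicate 2 (0.0841) or 3 (0.138) or mtAsn-2 replicate 1 (0.157) or 2 (0.0543). When each library was left out in turn, 15 of the 19 lower genes and 8 of the 20 higher genes kept all 3 calls.

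The promoters of 6 LINC genes are shown because their transcripts carried the main patterns: LINC01089 and LINC00865 were lower with all 3 LNAs, LINC01444 and LINC00941 higher with all 3, and LINC02609 and LINC02323 highest under mtAsn-2. Each window runs from 250 bases before to 50 bases after the RefSeq start (GRCh38.p14) on the gene's strand, 5′ to 3′. Capitals mark matches to a CCAAT box (CCAAT) or a GC box (GGGCGG), the sequences bound by NF-Y and by SP1-family factors, on either strand. LINC01089 lies at chr12:121802897-121803196 (minus strand), LINC00865 at chr10:89829243-89829542 (plus), LINC01444 at chr18:14970419-14970718 (minus), LINC00941 at chr12:30795431-30795730 (plus), LINC02609 at chr1:90851601-90851900 (minus) and LINC02323 at chr14:102545004-102545303 (plus).
LINC01089: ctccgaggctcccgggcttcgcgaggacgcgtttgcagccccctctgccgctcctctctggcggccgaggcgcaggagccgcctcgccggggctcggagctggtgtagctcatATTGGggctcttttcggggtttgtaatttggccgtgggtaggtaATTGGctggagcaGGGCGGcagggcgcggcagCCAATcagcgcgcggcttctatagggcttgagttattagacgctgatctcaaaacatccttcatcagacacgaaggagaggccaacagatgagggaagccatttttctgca
LINC00865: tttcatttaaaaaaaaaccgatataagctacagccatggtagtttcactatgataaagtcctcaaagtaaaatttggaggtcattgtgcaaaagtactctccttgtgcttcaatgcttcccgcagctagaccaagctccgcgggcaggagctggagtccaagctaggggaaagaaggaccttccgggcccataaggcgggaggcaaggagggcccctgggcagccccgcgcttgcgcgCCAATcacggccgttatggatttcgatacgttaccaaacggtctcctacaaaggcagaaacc
LINC01444: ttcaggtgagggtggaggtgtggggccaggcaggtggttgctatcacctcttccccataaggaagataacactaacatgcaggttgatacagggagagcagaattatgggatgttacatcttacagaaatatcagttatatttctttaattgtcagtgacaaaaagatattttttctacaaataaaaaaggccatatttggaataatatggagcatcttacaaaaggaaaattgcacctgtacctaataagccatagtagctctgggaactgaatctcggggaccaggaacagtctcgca
LINC00941: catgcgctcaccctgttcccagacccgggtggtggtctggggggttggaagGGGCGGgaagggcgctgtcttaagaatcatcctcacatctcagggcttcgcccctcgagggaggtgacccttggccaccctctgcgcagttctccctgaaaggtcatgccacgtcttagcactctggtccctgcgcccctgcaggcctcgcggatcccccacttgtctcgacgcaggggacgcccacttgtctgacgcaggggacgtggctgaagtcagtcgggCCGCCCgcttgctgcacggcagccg
LINC02609: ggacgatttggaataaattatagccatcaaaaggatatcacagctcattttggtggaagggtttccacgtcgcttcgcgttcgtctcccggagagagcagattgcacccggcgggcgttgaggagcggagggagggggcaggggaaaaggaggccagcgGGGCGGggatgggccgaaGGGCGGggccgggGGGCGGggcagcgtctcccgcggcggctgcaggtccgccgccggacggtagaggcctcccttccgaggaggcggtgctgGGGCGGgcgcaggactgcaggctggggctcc
LINC02323: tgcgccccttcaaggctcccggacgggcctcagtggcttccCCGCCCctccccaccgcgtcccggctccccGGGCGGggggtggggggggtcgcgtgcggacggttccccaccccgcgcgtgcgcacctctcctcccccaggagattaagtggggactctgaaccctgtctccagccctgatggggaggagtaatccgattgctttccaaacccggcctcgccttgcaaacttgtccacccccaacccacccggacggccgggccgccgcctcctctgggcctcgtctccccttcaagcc

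The window of LINC01089 held 3 CCAAT boxes and 1 GC box, LINC00865 had 1 CCAAT box, LINC00941 and LINC02323 had 2 GC boxes each, and LINC02609 had 4. LINC01444 held neither, with 2 CpG dinucleotides against 15 to 29 in the other windows. Of the 141 genes, 92 were in the promoter table, and 81 had the same start within 1 base. A CCAAT box stood in 35 of these 81 windows and in 34.6% of all 35116 windows, and a GC box in 46 and in 45%. Other motifs searched on both strands, none of which was found in the 6 windows, were TATAAA (9 of 81, 11.5% of all), TGACGTCA (3, 1.85%), TGANTCA (12, 7.71%), CACGTG (4, 7.26%), the NF-kB site (2, 1.91%) and TGATGNAAT (0, 0.991%). These counts describe letters in the windows and were not tested against the expression values.

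LINC01089, known as LIMT and transcribed away from the histone H3K4 methyltransferase gene SETD1B, fell with all 3 LNAs. It had 29.6, 29.3 and 26.2 CPM in the control libraries, 4.58, 5.32 and 5.53 under mtAsn-1, 2.67, 2.84 and 4.20 under mtAsn-2, and 6.25, 5.83 and 5.32 under mtLys. No library with a tRNA LNA came near the control range. The log2 fold changes were -2.46 ± 0.110 (SE, adjusted p = 9.66e-16), -3.14 ± 0.110 (1.91e-18) and -2.29 ± 0.100 (5.39e-16), or 5.50, 8.82 and 4.88-fold lower. mtAsn-2 was lower than both others, by -0.85 against mtLys (adjusted p = 4.21e-06). SETD1B, whose start is 719 bases away, fell less: its log2 fold changes were -0.42, -0.36 and -0.49.

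LINC00115, a single exon block at chromosome 1, 826206 to 827522, also fell with all 3. Its CPM was 10.2, 11.9 and 9.62 in the control libraries, 1.77, 1.77 and 1.69 under mtAsn-1, 1.43, 1.69 and 1.83 under mtAsn-2, and 1.32, 1.41 and 1.15 under mtLys. All 9 libraries with a tRNA LNA lay below all 3 control libraries. The log2 fold changes were -2.61 ± 0.138 (SE, adjusted p = 1.14e-14), -2.69 ± 0.126 (2.88e-16) and -3.02 ± 0.132 (2.21e-16). LINC01128 begins 69 bases away on the other strand and had 15.2 ± 1.07 CPM (SD, n = 3) with control, 12.4 ± 2.11 under mtAsn-1, 19.1 ± 0.847 under mtAsn-2 and 14.2 ± 0.803 under mtLys. It was higher under mtAsn-2 (log2 fold change 0.32, adjusted p = 0.00215) and lower under mtAsn-1 (-0.29, 0.0128), and the second call missed the threshold without control replicate 2 (0.0767) or mtAsn-1 replicate 2 (0.117). Under mtLys the value was -0.11 (adjusted p = 0.317).

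LINC00653, a single exon block on chromosome 20, went from 2.73, 2.08 and 2.83 CPM with control to 0.335 to 0.683 CPM in the 9 other libraries. These lie below 0.705 CPM, the level of 20 reads at the mean library total, so LINC00653 passed the limit of 20 through control. Its log2 fold changes were -2.32, -2.22 and -2.38 for mtAsn-1, mtAsn-2 and mtLys, and 417 of its exonic bases overlap LINC00652 on the other strand. LINC01481, whose exons overlap those of the CCR4-NOT deadenylase subunit gene CNOT2 by 295 bases, went from 4.52, 6.37 and 4.70 CPM to 0.985 to 1.90 CPM. It changed by -2.0, -1.78 and -2.05, and the log2 fold changes of CNOT2 itself were -0.12, -0.06 and -0.01. LINC01004, 9419 unspliced bases inside the span of the chromatin regulator gene KMT2E, went from 4.82, 6.53 and 4.92 CPM to 1.45 to 2.47 CPM. It changed by -1.45, -1.45 and -1.70, and KMT2E by -0.37, -0.35 and -0.38. Reads from KMT2E introns could be part of the LINC01004 count, which was not tested. LINC00865, with 0.909 to 1.72 CPM in control and 0.406 to 0.609 in the other libraries, changed by -1.32, -1.39 and -1.45.

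LINC01836 and LINC01311 fell with every LNA and less so under mtAsn-2. LINC01836 had 6.39, 6.34 and 4.81 CPM with control, 0.739, 0.629 and 1.33 under mtAsn-1, 2.34, 2.16 and 2.37 under mtAsn-2, and 1.27, 1.61 and 1.53 under mtLys. The direct test put mtAsn-1 below mtAsn-2 by -1.26 ± 0.220 (SE, adjusted p = 2.55e-05). LINC01311 had 6.54, 6.66 and 4.92 CPM with control, 1.77, 1.09 and 1.37 under mtAsn-1, 2.26, 2.31 and 2.68 under mtAsn-2, and 1.19, 1.03 and 0.968 under mtLys. The direct test put mtAsn-2 above mtLys by 1.17 ± 0.183 (SE, adjusted p = 5.04e-06).

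LINC02320 rose with all 3 LNAs. This gene, on chromosome 14 from 101632321 to 101731343, had 0.411, 0.520 and 0.428 CPM with control, 1.18, 2.40 and 1.33 under mtAsn-1, 0.771, 0.906 and 1.28 under mtAsn-2, and 2.10, 1.67 and 2.42 under mtLys. The groups did not overlap with control, and the log2 fold changes were 1.78 ± 0.311 (SE, adjusted p = 2.68e-05), 1.09 ± 0.318 (0.00522) and 2.15 ± 0.279 (3.11e-07). After thinning every library to one total, the mtAsn-2 value was 0.59 (adjusted p = 0.273). All 3 control libraries lay below 0.705 CPM, the level of 20 reads at the mean library total. LINC02320 therefore passed the limit of 20 through the groups where it was high. LINC00239, which overlaps its span on the other strand, had log2 fold changes of 0.64, 0.67 and 0.99. The first missed the threshold without control replicate 1 (adjusted p = 0.222) or mtAsn-1 replicates 1 (0.0508), 2 (0.0739) or 3 (0.0831), and the second without control replicate 1 (0.155) or mtAsn-2 replicate 1 (0.0548).

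LINC01444, a short spliced transcript on chromosome 18, had 0.560, 0.650 and 0.588 CPM with control, 1.28, 1.83 and 1.69 under mtAsn-1, 1.73, 1.53 and 1.37 under mtAsn-2, and 1.11, 1.20 and 1.45 under mtLys. Every tRNA LNA library was above every control library, by log2 fold changes of 1.40, 1.36 and 1.03. LINC01444 also had control levels below 0.705 CPM and passed the limit of 20 through the other groups. LINC01711 had 1.12, 0.650 and 0.855 CPM with control and 1.38 to 3.4 CPM in the others, with log2 fold changes of 1.69, 1.01 and 1.67. LINC00894, which overlaps exons of CXorf40B on the other strand over 239 bases, had 0.635 to 1.12 CPM with control and 1.26 to 2.53 CPM in the others, with log2 fold changes of 0.90, 1.30 and 1.30. LINC02085, a more abundant gene, had 6.61, 5.26 and 5.24 CPM with control and 7.31 to 11.5 CPM in the others, with log2 fold changes of 0.89, 0.38 and 0.70.

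**Figure D3:**
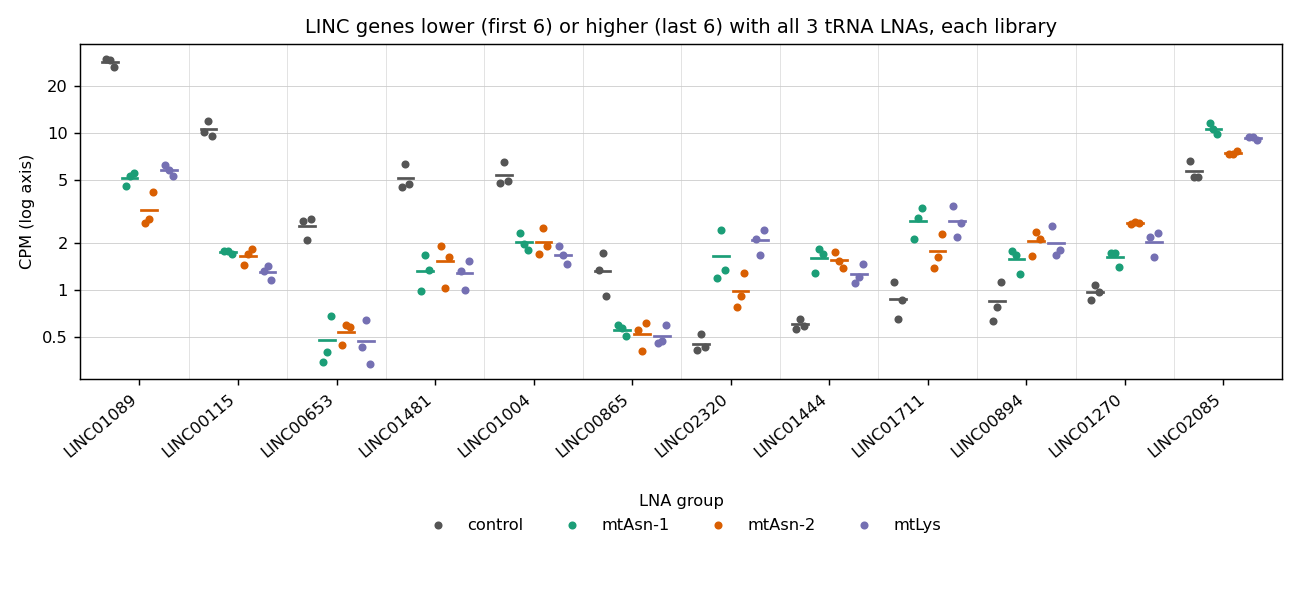
CPM (log axis) in each library, with a bar at each group's mean, for 6 LINC genes lower and 6 higher with all 3 tRNA LNAs. For every gene shown the control points lie outside the range of the other 9 points: LINC01089 sits at 26.2 to 29.6 CPM with control and at 2.67 to 6.25 CPM otherwise. LINC00653, LINC00865, LINC02320 and LINC01444 passed the count limit through the groups where they were high.

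The 2 asparagine LNAs differed from each other in many LINC genes. Between mtAsn-1 and mtAsn-2, 68 of 141 genes passed the test, 26 higher and 42 lower under mtAsn-1, beside 46.5% of all genes tested (24.6% and 21.9%). Between mtAsn-2 and mtLys, 74 passed, 32 higher and 42 lower under mtAsn-2, beside 48.6% of all genes (22.9% and 25.7%). Between mtAsn-1 and mtLys, 10 passed, 1 higher and 9 lower under mtAsn-1, beside 5.26% of all genes (2.12% and 3.14%). At least 2-fold, 3 were higher and 7 lower in the first comparison (2.16% and 2.12% of all genes), 2 and 7 in the second (1.73% and 2.75%), and 0 and 0 in the third (0.0498% and 0.336%). The median absolute log2 fold change was 0.34 and 0.37 in the comparisons under mtAsn-2 and 0.19 between mtAsn-1 and mtLys, beside 0.21, 0.21 and 0.092 for all genes. A test of any difference among the 4 groups was passed by 111 of 141 genes, beside 71% of all genes.

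mtAsn-2 stood above control and both other LNAs in 18 LINC genes (12.8%, beside 9.8% of all genes), of which 10 kept all 3 calls when each library was left out. LINC02323 had 0.822, 0.812 and 0.855 CPM with control, 0.936, 1.60 and 0.934 under mtAsn-1, 2.70, 2.34 and 2.53 under mtAsn-2, and 1.21, 0.762 and 0.968 under mtLys. The mtAsn-2 libraries lay above all others, by log2 fold changes of 1.61 ± 0.207 (SE) against control (adjusted p = 2.01e-07) and 1.35 ± 0.188 against mtLys (8.24e-07). LINC00337, beside the methyltransferase gene ICMT, had 1.34 to 1.53 CPM with control, 0.985 to 1.37 under mtAsn-1, 2.84 to 3.80 under mtAsn-2 and 1.38 to 2.13 under mtLys. It rose by 1.14 under mtAsn-2 (adjusted p = 4.86e-06). LINC01843, LINC01224, LINC00265 and LINC02609 rose under mtAsn-2 by log2 fold changes of 1.16, 0.97, 1.09 and 1.52, and each was higher there than under mtAsn-1 or mtLys.

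LINC00941, a spliced transcript at chromosome 12, 30795681 to 30802711, rose with all 3 LNAs and most under mtAsn-2. It had 6.80, 8.06 and 6.74 CPM with control, 12.1, 10.3 and 11.7 under mtAsn-1, 17.4, 18.2 and 17.3 under mtAsn-2, and 13.9, 13.7 and 13.5 under mtLys. The 4 groups did not overlap, though mtAsn-1 and mtLys missed the threshold between them (adjusted p = 0.0596). The log2 fold changes against control were 0.66 ± 0.0922 (SE, adjusted p = 9.84e-07), 1.28 ± 0.0831 (3.34e-13) and 0.92 ± 0.0856 (7.04e-10), and mtAsn-2 exceeded mtLys by 0.36 (0.000166). Its nearest coding gene CAPRIN2, 40688 bases away on the other strand, was also highest under mtAsn-2: it had 75.2 ± 2.66 CPM (SD, n = 3) with control, 96.7 ± 10.2, 120 ± 7.74 and 100 ± 4.05 under mtAsn-1, mtAsn-2 and mtLys.

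mtAsn-2 stood below control and both others in 7 LINC genes (4.96%, beside 11.8% of all genes), and 5 of these kept their calls when each library was left out. LINC01578 had 36.0, 38.3 and 38.4 CPM with control, 28.3, 29.8 and 31.4 under mtAsn-1, 24.3, 23.1 and 21.6 under mtAsn-2, and 30.1, 32.8 and 31.7 under mtLys. All 3 LNAs were below control, and mtAsn-2 was the lowest, with log2 fold changes of -0.33, -0.70 and -0.25. CHD2, 1577 bases away on the same strand, went from 229 ± 1.51 CPM to 174 ± 5.99, 149 ± 7.06 and 186 ± 2.51 (SD, n = 3), which are log2 fold changes of -0.40, -0.62 and -0.30. LINC01605 had 8.29 to 10.4 CPM with control and 6.28 to 6.96 CPM under mtAsn-2, where it fell by 0.49 on the log2 scale (adjusted p = 9.67e-05). Its log2 fold change was 0.08 with both other LNAs.

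A further 15 LINC genes were higher under mtAsn-1 and under mtLys than with control and under mtAsn-2 (10.6%, beside 9.71% of all genes), and 5 of these kept all 4 calls when each library was left out. LINC02827 had 1.38, 0.715 and 1.44 CPM with control, 3.70, 4.52 and 3.52 under mtAsn-1, 1.32, 1.5 and 1.67 under mtAsn-2, and 3.13, 3.46 and 3.13 under mtLys. The mtAsn-1 and mtLys libraries lay above all others, by log2 fold changes of 1.76 ± 0.197 (SE, adjusted p = 2.27e-08) and 1.51 ± 0.193 (2.13e-07) against control. With mtAsn-2 it was 0.39 (adjusted p = 0.135). LINC02678 had 0.877 to 1.66 CPM with control, 2.66 to 3.84 under mtAsn-1, 0.881 to 1.67 under mtAsn-2 and 2.53 to 3.75 under mtLys, with log2 fold changes of 1.45, 0.20 (adjusted p = 0.578) and 1.48. LINC00926 had log2 fold changes of 0.89, 0.05 (adjusted p = 0.868) and 0.81. LINC00673, a gene reported in several cancers, changed by 0.27 under mtAsn-1 and 0.33 under mtLys, and its value under mtAsn-2 was -0.04 (adjusted p = 0.695).

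The opposite form, lower under mtAsn-1 and mtLys than with control and mtAsn-2, held for 9 genes (6.38%, beside 6.3% of all genes), 5 of them in every fit without 1 library. LINC02693, the second most counted LINC gene, had 56.5, 56.2 and 53.0 CPM with control, 46.1, 44.6 and 46.6 under mtAsn-1, 59.7, 58.3 and 58.2 under mtAsn-2, and 42.3, 46.5 and 43.1 under mtLys. The mtAsn-1 and mtLys libraries were below all others, by log2 fold changes against control of -0.27 ± 0.0507 (SE, adjusted p = 5.89e-05) and -0.33 ± 0.0491 (2.36e-06). LINC02701 had 2.35, 3.25 and 3.37 CPM with control, 1.13, 0.972 and 1.19 under mtAsn-1, 3.47, 2.84 and 3.20 under mtAsn-2, and 2.02, 2.34 and 2.23 under mtLys. It was lower under mtAsn-1 than with control (-1.42, adjusted p = 6.37e-07), mtAsn-2 (-1.51, 9.82e-08) and mtLys (-0.98, 0.00283). Its fall under mtLys (-0.44, adjusted p = 0.0222) was lost without control replicate 2 (0.132) or 3 (0.0898) or mtLys replicate 1 (0.0945).

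**Figure D4:**
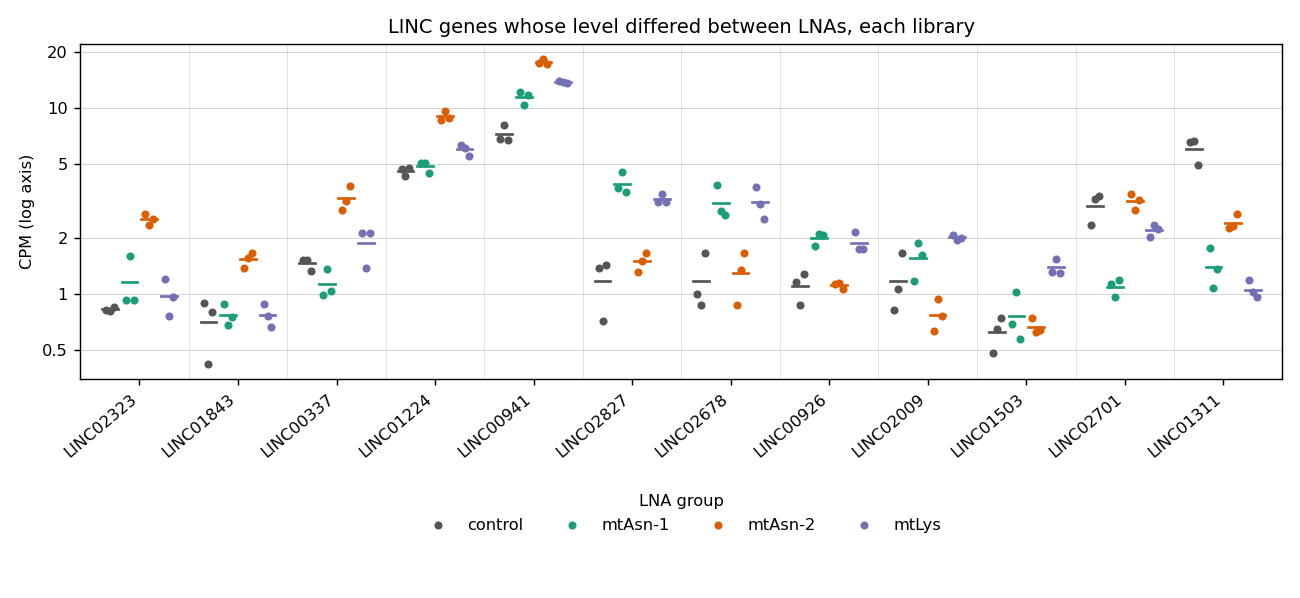
CPM (log axis) in each library, with a bar at each group's mean, for 12 LINC genes whose level differed between the tRNA LNAs. The first 5 genes are highest under mtAsn-2 (LINC00941 at 17.3 to 18.2 CPM), and LINC02827, LINC02678 and LINC00926 are higher under mtAsn-1 and mtLys than in the other 2 groups. LINC01503 passed the count limit partly through mtLys, where it was high.

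mtAsn-1 and mtLys differed in 10 LINC genes, and this count was the least stable. LINC02701 kept its call when any 1 library was left out, and the other 9 did not. The count was 3 without mtAsn-1 replicate 1, 5 without mtAsn-1 replicate 2, and 4 without mtAsn-1 replicate 3, mtLys replicate 2 or mtLys replicate 3. LINC01503 had 0.485 to 0.748 CPM with control, 0.575 to 1.03 under mtAsn-1, 0.625 to 0.743 under mtAsn-2 and 1.30 to 1.55 under mtLys. Its rise under mtLys over control was 1.17 ± 0.236 (SE, adjusted p = 0.000152). Only under mtLys did its whole range lie above 0.705 CPM, the level of 20 reads at the mean library total. LINC01503 thus passed the limit of 20 partly through mtLys, and these values are a description. Its difference between mtAsn-1 and mtLys (-0.92, adjusted p = 0.0189) was lost without mtAsn-1 replicate 1 (0.0719) or 3 (0.137) or mtLys replicate 2 (0.0931).

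Several LINC genes studied in other cancers were measured, and their levels differed widely. LINC00460 had 0.672 to 0.909 CPM with control, 0.985 to 1.11 under mtAsn-1, 1.46 to 1.67 under mtAsn-2 and 1.41 to 1.79 under mtLys. It rose under mtAsn-2 (0.97, adjusted p = 0.000207) and mtLys (1.01, 0.000155), and its value under mtAsn-1 was 0.43 (0.143). LINC00963 had 5.52 to 7.11 CPM with control, 6.55 to 7.60 under mtAsn-1, 10.1 to 10.3 under mtAsn-2 and 8.26 to 9.38 under mtLys, and rose by 0.73 and 0.51 with the last 2. LINC01116 had 13.8 to 16.1 CPM with control, and its log2 fold changes were 0.08, -0.15 and 0.12, none past the threshold. LINC00467 had 3.77 to 5.17 CPM with control and log2 fold changes of -0.09, -0.16 and 0.03. LINC00261, known as DEANR1 and located beside the endoderm factor gene FOXA2, had 33.5 to 36.9 CPM with control and 22.1 to 29.5 CPM in the other libraries, with changes of -0.49, -0.44 and -0.27.

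Position along the genome was measured independently of the counts. The nearest protein-coding gene lay at a median of 17824 bases, within 5 kb for 39 LINC genes and within 1 kb for 22, and 11 overlapped the span of a coding gene. Among the 39 near genes, 7 rose and 17 fell under mtAsn-1, 9 and 12 under mtAsn-2, and 8 and 15 under mtLys. Among the 102 others, 29 rose and 20 fell under mtAsn-1, 32 and 20 under mtAsn-2, and 42 and 20 under mtLys. Among the 17 genes with 1 exon block, 1 rose and 5 fell under mtAsn-1, 3 and 8 under mtAsn-2, and 2 and 7 under mtLys. Their median log2 fold changes were -0.24, -0.34 and -0.34, beside 0.062, 0.078 and 0.19 for the 124 genes with more blocks. Of all genes tested, 24.3% rose and 24.2% fell under mtAsn-1, 24.1% and 27% under mtAsn-2, and 24.6% and 23.9% under mtLys. The differences between these classes were not tested.

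The nearest coding gene was itself tested for 116 LINC genes, 110 distinct neighbours in all. Both were called in 32 pairs under mtAsn-1, 25 in the same direction, in 43 pairs under mtAsn-2, 30 in the same direction, and in 49 pairs under mtLys, 34 in the same direction. Across pairs, which share libraries and some neighbours, Pearson correlations of the log2 fold changes were 0.33, 0.22 and 0.28. For the 36 pairs within 5 kb they were 0.26, 0.25 and 0.20. Of these near pairs with both called, 7 of 9, 12 of 15 and 6 of 11 shared a direction. The same shares for gene pairs that are not neighbours were not measured, so these values do not show an effect of position. A change of at least 2-fold was found in 20, 23 and 21 LINC genes of these pairs, and the neighbour was also at least 2-fold changed in the same direction in 2, 1 and 0 of them. LINC00672 and LASP1, an actin-binding protein gene 3398 bases away on the same strand, fell together under mtAsn-2: LINC00672 had 1.07 to 1.31 CPM with control and 0.578 to 0.687 under mtAsn-2, a log2 fold change of -0.92 ± 0.253 (SE, adjusted p = 0.00307), and LASP1 changed by -0.99 (1.24e-18). Under mtAsn-2 LINC00672 lay below 0.705 CPM, the level of 20 reads at the mean library total. It therefore passed the limit of 20 through the other groups. LINC00857 moved apart from its neighbour ANXA11, an annexin gene: its log2 fold changes were -0.80 and -0.78 under mtAsn-1 and mtLys, and those of ANXA11 were 0.12 and 0.14. With mtAsn-2 ANXA11 changed by -0.60 (adjusted p = 2.84e-13) and LINC00857 by -0.27, a call lost without control replicate 1 (0.0614) or 2 (0.108) or mtAsn-2 replicate 1 (0.103) or 3 (0.0575).

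**Figure D5:**
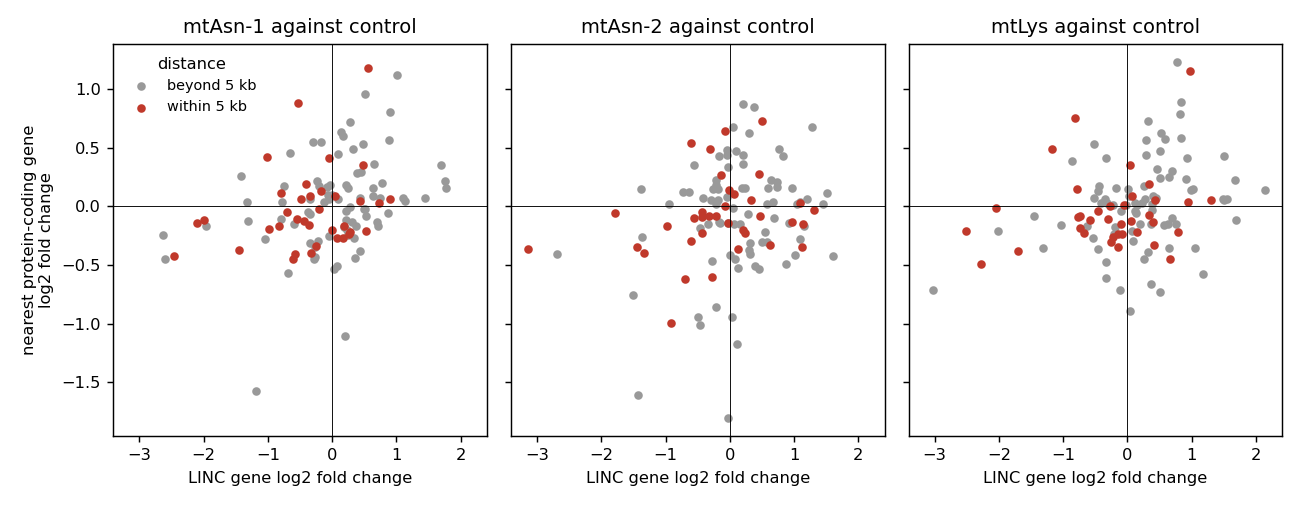
Log2 fold change of each LINC gene (x axis) against that of its nearest protein-coding gene (y axis) for the 116 pairs with both tested, with 1 panel per tRNA LNA against control and pairs within 5 kb in red. The points spread wider along x than along y. Among the falls beyond -2, those of LINC01089 and LINC00115 have neighbours between -0.71 and -0.36. That of LINC01481 under mtLys (-2.05) has its neighbour CNOT2 at -0.01.

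The LINC genes are one class of noncoding transcript, and other named long noncoding RNAs were read from a fixed list. Of 45 such genes 25 were tested, with 5 higher and 10 lower under mtAsn-1, 4 and 10 under mtAsn-2, and 3 and 8 under mtLys. KCNQ1OT1, the imprinted antisense RNA of KCNQ1, had log2 fold changes of -1.27, -1.79 and -1.56. NORAD, a Pumilio-binding RNA, had changes of -0.41, -0.28 and -0.45, and LUCAT1 had changes of 0.99, 0.70 and 0.88. NKILA, an RNA that binds the NF-kB complex, had changes of 0.92, 1.19 and 0.50. Median log2 fold changes of the list were -0.13, -0.031 and -0.15, beside -0.0035, -0.0071 and -0.00054 for all genes.

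Genes of the machinery that ends or removes such transcripts were called in both directions, so the signed medians given here do not measure the size of single changes. Among all genes 48.5%, 51.1% and 48.5% were called under mtAsn-1, mtAsn-2 and mtLys, which is the background for the lists here and for the named RNAs above. Of 25 genes of the RNA exosome and its cofactors, 6 were higher and 8 lower under mtAsn-1, 8 and 6 under mtAsn-2, and 3 and 8 under mtLys, with median log2 fold changes of 0.0015, 0.040 and -0.041. The exonuclease gene DIS3 changed by -0.33 under mtAsn-1 and -0.26 under mtLys, and its value under mtAsn-2 was -0.10 (adjusted p = 0.110). Of 15 Integrator genes 14 were tested, with 3 higher and 4 lower, 4 and 3, and 3 and 3 for mtAsn-1, mtAsn-2 and mtLys, and medians of -0.048, 0.024 and -0.026. INTS1 rose by 0.48, 0.36 and 0.32, and INTS6 fell by 0.46, 0.59 and 0.47. Of 10 genes of nonsense-mediated decay, 1 was higher in each comparison and 4, 3 and 3 were lower, with medians of -0.091, -0.026 and -0.11.

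The counting limits some of these levels. MALAT1, usually among the most abundant noncoding RNAs, had 24.7 reads per library, and 7205 of its 8779 exonic bases overlap the antisense gene TALAM1, which had 0.333. Exons of 31 of the 141 LINC genes overlap a gene on the other strand and 5 overlap one on the same strand, so their levels are uncertain. LINC01004 shares no exon bases with another gene but lies inside the span of KMT2E on the other strand. Its level is uncertain too, since reads from KMT2E introns could be part of its count. Of the 31, 7 rose and 11 fell under mtAsn-1, 9 and 8 under mtAsn-2, and 8 and 11 under mtLys. Of the 110 others, 29 rose and 26 fell under mtAsn-1, 32 and 24 under mtAsn-2, and 42 and 24 under mtLys. The shares over all genes tested were 24.3% higher and 24.2% lower under mtAsn-1, 24.1% and 27% under mtAsn-2, and 24.6% and 23.9% under mtLys. The difference between the overlapping genes and the others was not tested. In bulk RNA, fewer cells with a transcript and less of it per cell cannot be told apart.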

How the data were processed

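MDA-MB-231 RNA was sequenced with the TruSeq RNA Library Kit v2, per the labels. The deposited table holds whole, unnormalised read counts, a column for each library. The submitters' processing notes name FastQC, STAR 2.6.0a, featureCounts, DESeq2 and hg38, without roles. The sources used here do not give the strand setting or how reads shared by several genes were treated. Of 52897 lines, 52859 genes were used, with 12 genes on broken lines and 26 fragments left out.

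The count test was edgeR 4.0.16 (R 4.3.3) with TMM factors. Low counts were removed by filterByExpr (minimum 10, total 15), robust quasi-likelihood F tests came from 1 model of 12 libraries, and p was adjusted by Benjamini-Hochberg over 16051 genes, with a threshold of 0.05. An SE is the size of the log2 fold change divided by the root of F, and an SD is over 3 libraries. CPM uses TMM-scaled totals. The 141 genes and all lists were chosen with earlier results of these data known. Genes were named by rule: the 10 highest per kilobase, the largest non-overlapping rises and falls of each comparison, those shared by the 3 LNAs, well-studied names, the highest genes without a call, those beside the limit of 20, nearest coding genes, and up to 2 rises and 2 falls of each list, not all of which are reported here. LINC00239, LINC00261, LINC00265, LINC00672, LINC00857, LINC00926, LINC01003, LINC01128, LINC01224, LINC01605, LINC01963 and LINC02085, with ANXA11, CHD2, FOXA2, KRT19, LASP1 and VIM, were named after their values were seen. Gene positions and exons are those given with the deposited counts, coding status is from RefSeq, and promoter windows are from RefSeq GRCh38.p14. Alternatives were RLE factors, DESeq2 1.42.0, other filters, a replicate block, the compared groups alone, each library left out and, chosen after seeing the data, thinning to the smallest total. The test was checked on simulated counts with 1 spread for all genes, a coefficient of variation of 0.042. That check does not cover genes whose spread differs from this value. Replicates differed by more than counting noise (chi-square per gene at least 2.30). Plots used matplotlib 3.10.9 (Python 3.11.15), and tables pandas 2.3.3 with numpy 2.4.6.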

Additional observations from a re-analysis of the deposited data

How the results depend on the processing

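The numbers of LINC genes called kept within 1.5 times under every alternative, except between mtAsn-1 and mtLys. That count of 10 was 3 with DESeq2, 3 with libraries thinned to 17978825 counts, and 3 to 11 when each library was left out in turn. Leaving out each library gave 56 to 75 genes for mtAsn-1 against control, 62 to 72 for mtAsn-2, 72 to 85 for mtLys, 55 to 68 for mtAsn-1 against mtAsn-2, 63 to 77 for mtAsn-2 against mtLys and 105 to 112 for any difference. With the replicate number as a block the counts were 71, 69, 84, 66, 9, 73 and 109, in the order of mtAsn-1, mtAsn-2 and mtLys against control, mtAsn-1 against mtAsn-2, mtAsn-1 against mtLys, mtAsn-2 against mtLys and any difference. The numbers do not pair the libraries: same-number correlations ran from -0.0991 to 0.0417, and 2 of 12 libraries correlated best with their own number.

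Of 383 calls of single LINC genes in the 6 comparisons, 258 held when each library was left out and 237 under every alternative. DESeq2 lost 64, thinning 103, no filter 27, the block 14, the compared groups alone 13, RLE factors 2 and the stricter filter 0 of 372. LINC01963, mtAsn-2 against mtLys, changed sign when libraries were thinned, from -0.24 to 0.044 (adjusted p = 0.771), and the cause was not tested. A mean CPM limit in place of the mean count chose the same 141 genes. Mean counts were under 50 reads for 58 of them, which limits the precision of their values.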
